A study of Homo sapiens with 6 samples.

Results

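The endothelin system was examined in cells labelled HepG2, an established line from a human liver tumour. Most hepatocyte markers, given below, did not bear this label out. The system was followed through 6 genes taken by name. These were the ligand genes EDN1 and EDN2, the converting enzyme genes ECE1 and ECE2, and the receptor genes EDNRA and EDNRB. Of these 6 genes, 5 had a row among the 27605 genes of the expression table. ECE2 and the third ligand gene, EDN3, had no row in it and could not be analysed here. The shNC group (3 libraries) is the control by its name and has the genotype WT in the labels. The shARHGEF2 group (3 libraries) is a stable knockdown by lentiviral hairpin of ARHGEF2, which encodes a guanine nucleotide exchange factor for the small GTPase RHOA. How many hairpin sequences were used, and whether the libraries of a group came from separate cultures, is not given in the sources used here, so p-values measure only the spread between these libraries. EDN1 and EDN2 were chosen by their lower FPKM in shARHGEF2 cells in these same libraries, and their difference is therefore described, with no p-value. The other members were taken as the partners of these ligands.

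Endothelins are short peptides that act on neighbouring cells. They are made as long precursors, which furin-like convertases cut to an inactive intermediate called big endothelin. A membrane metalloprotease of the endothelin converting enzyme family then releases the active peptide. The peptides act through 2 receptors coupled to G proteins. EDNRA is best known for contraction of vascular smooth muscle, and EDNRB for nitric oxide release in endothelium and for clearing the peptide. In liver, endothelins are known chiefly for contracting the stellate cells around the sinusoids.

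The peptides of EDN1 and EDN2 are encoded by exon 2 of 5 in both genes, and the coding stretches are shown because they hold the part of each precursor that the receptors bind. The stretches come from GENCODE 29 transcripts, run 5′ to 3′ on the sense strand and cover 21 codons (63 bases). Capitals mark the bases that differ between the genes. The EDN1 stretch holds codons 53 to 73 of 212 and lies at chr6:12292433-12292495 of GRCh38 on the plus strand. The EDN2 stretch holds codons 49 to 69 of 178 and lies at chr1:41484061-41484123 of GRCh38 on the minus strand.
EDN1: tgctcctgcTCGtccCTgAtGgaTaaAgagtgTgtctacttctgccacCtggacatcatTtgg
EDN2: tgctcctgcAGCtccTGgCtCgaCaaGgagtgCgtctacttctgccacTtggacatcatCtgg
Of the 63 bases, 51 were identical and 12 differed. The differences changed the encoded residue in 2 of the 21 codons, and the other changed codons were synonymous.

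The control regions of the ligand genes are shown because both genes were lower in the same cells. Each run holds the 250 bases before the RefSeq start (build GRCh38.p14) and reads 5′ to 3′ on the strand of the gene, which is chr6:12290111-12290360 on the plus strand for EDN1 and chr1:41484684-41484933 on the minus strand for EDN2. For EDN1, which has 3 RefSeq windows, the window nearest to the start of the listed transcript was taken, at a distance of 2 bases. Capitals mark motifs found on either strand. The letters searched were TGANTCA for a strict form of the AP-1 site. For the core of the hypoxia response element they were ACGTG. For a TATA box they were TATAAA.
EDN1: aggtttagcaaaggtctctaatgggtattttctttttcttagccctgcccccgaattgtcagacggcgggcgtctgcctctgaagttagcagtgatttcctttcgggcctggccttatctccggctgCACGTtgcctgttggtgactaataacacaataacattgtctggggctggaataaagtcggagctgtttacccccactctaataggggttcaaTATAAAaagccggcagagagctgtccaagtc
EDN2: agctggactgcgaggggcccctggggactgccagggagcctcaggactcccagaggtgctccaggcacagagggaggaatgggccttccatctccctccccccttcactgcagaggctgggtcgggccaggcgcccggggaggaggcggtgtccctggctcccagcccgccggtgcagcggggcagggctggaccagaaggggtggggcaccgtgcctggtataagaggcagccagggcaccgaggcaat
The EDN1 window held 1 ACGTG core, on the reverse strand from 123 to 119 bases before the start, and 1 TATAAA from 31 to 26 bases before it. The EDN2 window held 0 matches to the 3 motifs, and neither window held TGANTCA. Over all 35116 windows of this length, 18.5% held ACGTG, 10.7% held TATAAA and 6.57% held TGANTCA, without any overlap between the 2 matches in EDN1. These matches describe letters only. Sites that depart from these letters were not searched, so a lack of matches does not mean a lack of sites.

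Levels are given in FPKM, which scale a gene's read pairs by its length and by the size of the library, so that levels of different genes can be set side by side. ARHGEF2 itself had 13, 14.4 and 13.9 FPKM in shNC replicates 1 to 3 and 4.25, 4 and 4.82 FPKM in shARHGEF2 replicates 1 to 3. Low FPKM values multiplied by transcript length fell in steps, and the step that best matched whole numbers put the depth at 40100000 to 46600000 counting units per library. Whether a unit is a read pair or 1 read of a pair could not be settled. The step was set on genes whose values had at most 6 decimals, as EDN1 had and EDN2, EDNRA and EDNRB did not. Between 54.5% and 58.2% of the low values lay within 0.1 of a whole number of units, where 20% would do so if they were spread evenly, so numbers of units given for a gene are rough and carry no interval. The libraries were alike in depth, and their pairwise Pearson correlations over the genes tested lay between 0.9740 and 0.9868. Within a group they were 0.9810 to 0.9868 and between the groups 0.9740 to 0.9853. These ranges overlapped, so the correlations did not set the groups apart. Of 19 hepatocyte markers, 11 had a row and only VTN (vitronectin) had a mean of at least 1 FPKM. ALB and APOB were among the markers without a row. AFP, HNF4A and SERPINA1 did not exceed 0.0956 FPKM in any library, so the labelled cell type was not borne out by these markers. The summed level of the 11 was 6.02 to 6.24 FPKM in shNC and 6.72 to 7.7 FPKM in shARHGEF2 libraries, most of it VTN, and its part in the results was not tested.

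EDN1 (ENSG00000078401), which encodes endothelin-1, was the more abundant ligand gene. It had 0.973, 1.21 and 0.891 FPKM in shNC replicates 1 to 3 and 0.487, 0.5 and 0.543 FPKM in shARHGEF2 replicates 1 to 3. All 3 knockdown values were below the lowest control, and they lay closer together than the controls did. The control mean of 1.03 ± 0.167 FPKM compared with 0.51 ± 0.0292 FPKM after knockdown (SD, n = 3 each), a ratio of 0.497. On the scale of log2(FPKM + 1) the difference was -0.42. The ratio of means moved only between 0.467 and 0.547 when any 1 library was left out. Of the genes listed, 63.2% had a lower mean than EDN1 in shNC cells and 55.8% in shARHGEF2 cells, which places it near the middle of all genes in both groups.

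EDN2 (ENSG00000127129), which encodes endothelin-2, was scarcer than EDN1 in each of the 6 libraries. It had 0.307, 0.765 and 0.389 FPKM in shNC replicates 1 to 3 and 0.0452, 0.0831 and 0.211 FPKM in shARHGEF2 replicates 1 to 3. The groups did not overlap here either, but the libraries within a group were far more spread than for EDN1. The control mean of 0.487 ± 0.244 FPKM compared with 0.113 ± 0.0867 FPKM after knockdown (SD, n = 3 each), a ratio of 0.232. Without shARHGEF2 replicate 3, the highest of its group, the ratio was 0.132, and without shNC replicate 2, the highest control, it was 0.325. With a transcript of 1241 nt, EDN2 received roughly 17.6, 42.6 and 19.3 counting units in the shNC libraries and 2.3, 4.5 and 12.2 in the shARHGEF2 libraries. For EDN1, on 2033 nt, the rough numbers were 72.6 to 110.6 in shNC and 40.3 to 51.5 in shARHGEF2 libraries. The level of EDN2 after knockdown thus rests on about 19.0 units over the 3 shARHGEF2 libraries together, and that of EDN1 on about 136.2.

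**Figure D1:**
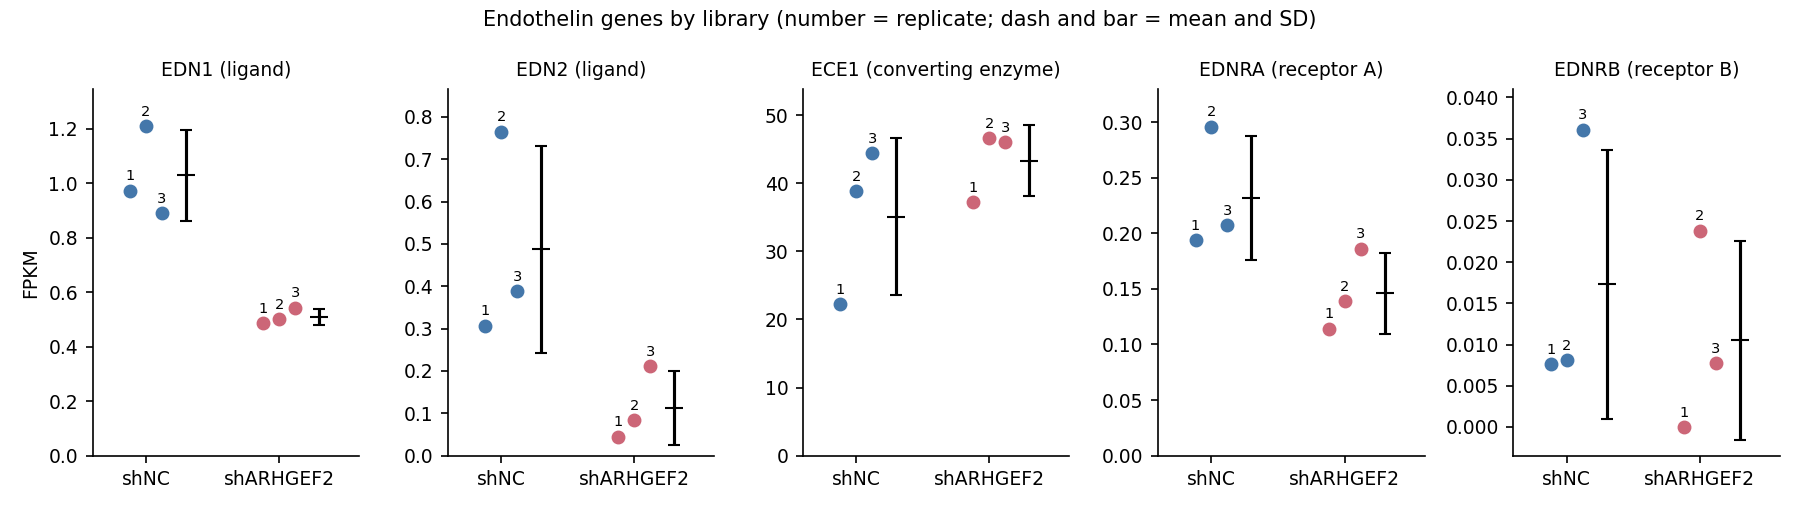
FPKM of the 5 endothelin genes in each library, with 3 points per group numbered by replicate and a dash and bar for the mean and SD; each panel has its own linear axis. The shARHGEF2 points lie below all shNC points in EDN1, EDN2 and EDNRA, and the groups overlap in ECE1, where shNC replicate 1 (22.2 FPKM) stands apart, and in EDNRB, where no library exceeds 0.0361 FPKM.

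Both ligand genes were lower, which follows from how they were chosen, but not in proportion in every library. The share of EDN2 in the summed FPKM of EDN1 and EDN2 was 24%, 38.7% and 30.4% in shNC replicates 1 to 3 and 8.48%, 14.2% and 28% in shARHGEF2 replicates 1 to 3. The ranges of this share overlapped, so a greater relative fall of EDN2 than of EDN1 did not separate the groups. The summed level of the pair was 1.51 ± 0.403 FPKM in the controls and 0.623 ± 0.116 FPKM after knockdown (SD, n = 3 each). That the sums did not overlap follows from each gene alone. The highest library of each group was the same in both genes, shNC replicate 2 and shARHGEF2 replicate 3.

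ECE1 (ENSG00000117298, chromosome 1 of GRCh38 from 21217247 to 21345572), the membrane protease that releases the active peptide, was the most abundant of the endothelin genes. It had 22.2, 38.8 and 44.4 FPKM in shNC replicates 1 to 3 and 37.2, 46.6 and 46 FPKM in shARHGEF2 replicates 1 to 3. The groups overlapped, and shNC replicate 1 lay well under the other 5 libraries. The control mean of 35.1 ± 11.5 FPKM compared with 43.3 ± 5.23 FPKM after knockdown (SD, n = 3 each). The log2 difference of 0.34 (standard error 0.25, 95% interval -0.24 to 0.93) did not pass the test (adjusted p = 0.603 in limma). It was 0.05 without shNC replicate 1 (adjusted p = 0.911 in limma). Most of the fitted difference thus came with 1 control. The level itself stood high: 95.4% of the genes listed were lower in shNC and 96.3% in shARHGEF2 cells. The antisense gene ECE1-AS1 did not exceed 0.0699 FPKM in any library.

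ECE1 exceeded the ligands by far in all libraries. Its FPKM was 17.3, 19.6 and 34.7 times the sum of EDN1 and EDN2 in shNC replicates 1 to 3 and 70, 79.9 and 61 times that sum in shARHGEF2 replicates 1 to 3. The quotient did not overlap between the groups. Both its parts entered it, a lower sum of the ligands and the ECE1 level of each library. Since the ligands were chosen for their lower level in these same libraries, this separation carries no weight. The second converting enzyme gene, ECE2, had no value of its own, so its level is not known here. Only the readthrough gene EEF1AKMT4-ECE2, whose transcript runs from the upstream gene EEF1AKMT4 into ECE2, had a value. It was listed at 0 in 5 libraries and at 0.0136 FPKM in shARHGEF2 replicate 1. EEF1AKMT4 alone had 52.4 ± 4.24 FPKM in the controls and 52.6 ± 1.71 FPKM after knockdown (SD, n = 3 each).

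The receptor genes were at low levels. EDNRA (ENSG00000151617, chromosome 4 of GRCh38 from 147480917 to 147544954) had 0.194, 0.296 and 0.207 FPKM in shNC replicates 1 to 3 and 0.114, 0.139 and 0.186 FPKM in shARHGEF2 replicates 1 to 3. The shARHGEF2 libraries all lay below the shNC libraries, though shARHGEF2 replicate 3 came close to shNC replicate 1. The means were 0.232 ± 0.0557 and 0.146 ± 0.0366 FPKM (SD, n = 3 each), a ratio of 0.629. Summed over the 3 libraries of a group, this was roughly 126.7 counting units for the controls and 80.4 after knockdown. The genes GTF2F2P1 and AC093908.1 lie within EDNRA on the same strand and did not exceed 0.127 and 0.00828 FPKM. EDNRB (ENSG00000136160, chromosome 13 of GRCh38 from 77895481 to 77975529) had 0.00764, 0.00807 and 0.0361 FPKM in shNC replicates 1 to 3 and 0, 0.0238 and 0.00777 FPKM in shARHGEF2 replicates 1 to 3. These values stand for at most about 6.5 counting units in a library and 0 in another, so no fold is given for EDNRB and a difference between the groups was not detectable at this depth.

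**Figure D2:**
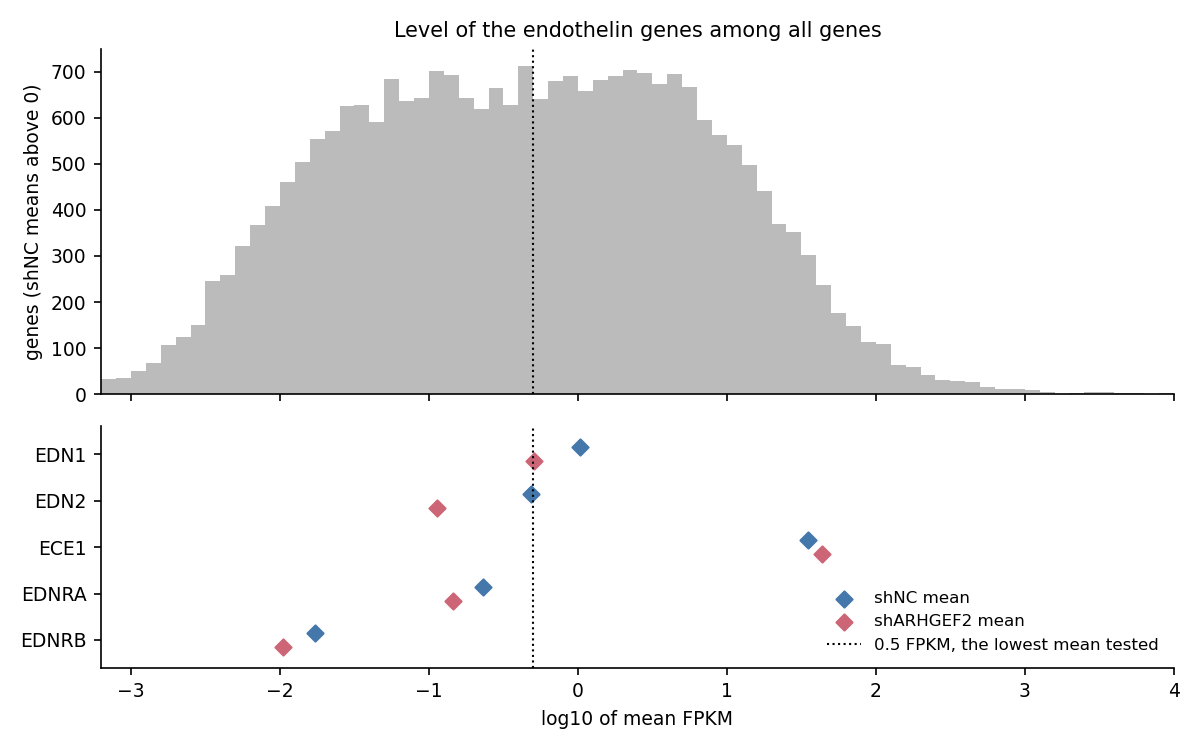
Upper panel: number of genes by log10 of their mean FPKM in shNC cells. Lower panel: mean of each endothelin gene in shNC and shARHGEF2 cells on the same axis, with the dotted line at 0.5 FPKM. ECE1 lies in the upper tail, EDN1 at or above the dotted line, EDN2 and EDNRA below it and EDNRB in the lower tail.

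By mean FPKM the order in shNC cells was ECE1, EDN1, EDN2, EDNRA and EDNRB, and neighbours in this order did not overlap in their range over the 3 libraries. In shARHGEF2 cells EDN2 and EDNRA were no longer apart. EDN2 was above EDNRA in 3 of 3 shNC libraries and in 1 of 3 shARHGEF2 libraries. The quotient of EDN2 over EDNRA was 1.59 to 2.58 in shNC and 0.396 to 1.13 in shARHGEF2 libraries. Since EDN2 was chosen for its lower level in these same libraries, this change of order carries no weight. EDN1 remained above EDNRA in all 6 libraries, at 4.09 to 5.02 times its FPKM in shNC and 2.92 to 4.27 times in shARHGEF2 libraries.

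Only EDN1 and ECE1 reached the mean of 0.5 FPKM asked for in the fit over all genes. EDN2, EDNRA and EDNRB stayed under it and were not tested. EDN1 was part of the fit, but its p is not used because these values chose it. ECE1, the 1 member left with a test, was not called. The fit missed small changes in simulated data, so this does not mean that ECE1 was unchanged. Over the 12291 genes in the fit, 0.277% had an adjusted p under 0.05 in limma (0.195% higher and 0.0814% lower in shARHGEF2 cells) and 13.7% an unadjusted p under 0.05. Among genes tested, 9.17% had all shARHGEF2 libraries below all shNC libraries, as EDN1 had, and 0.976% had a ratio of means of at most 0.5, as EDN1 had. Among the 4538 genes with a mean of 0.1 to under 0.5 FPKM, the range of EDN2 and EDNRA, 6.43% did, and 10.1% had a ratio of means of at most 0.5, as EDN2 had. Since EDN1 and EDN2 were chosen for this contrast, their place among these shares carries no weight. In a bulk sample, fewer cells that express a gene and less RNA per cell cannot be told apart.

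**Figure D3:**
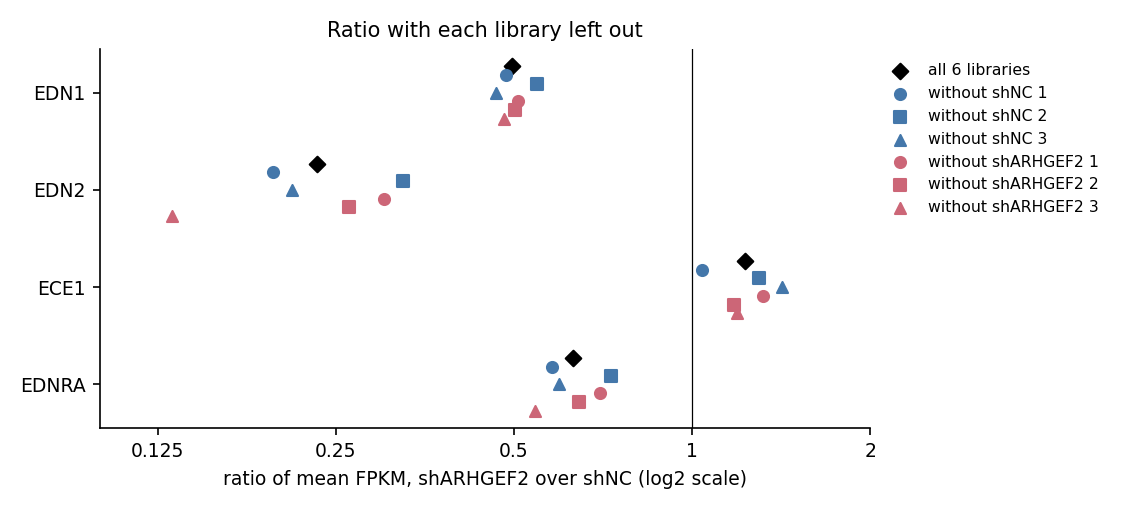
Ratio of mean FPKM, shARHGEF2 over shNC, on a log2 axis, for all 6 libraries (black diamond) and with each library left out (blue for a control, red for a shARHGEF2 library). EDN1 keeps between 0.467 and 0.547, EDN2 spreads from 0.132 to 0.325, EDNRA lies between 0.543 and 0.729, and ECE1 between 1.04 and 1.42, closest to 1 without shNC replicate 1.

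Cell types that usually carry endothelin ligands or receptors were looked at through their markers. Of 10 endothelial markers, 8 had a row, and their summed level was 3.93 to 4.14 FPKM in shNC and 4.52 to 5.05 FPKM in shARHGEF2 libraries. Most of it was ESAM, an adhesion molecule, at 3.31 ± 0.113 and 3.9 ± 0.241 FPKM (SD, n = 3 each). PECAM1, an adhesion molecule of endothelium and blood cells, had 0.539 to 0.606 FPKM in shNC and 0.76 to 0.854 FPKM in shARHGEF2 libraries. ESAM and PECAM1 were both higher in every shARHGEF2 library than in every control, as were 11.3% of all genes tested. Neither was called in limma (adjusted p = 0.499 and 0.438). CDH5 and VWF, which also define endothelium, did not exceed 0.0261 FPKM, and TIE1 was listed at 0 in 5 of 6 libraries. The summed level of the endothelial list, mostly ESAM, was higher in the shARHGEF2 libraries, and its part in the EDN1 result was not tested. Of 8 smooth muscle and stellate markers, 7 had a row, with a sum of 7.97 to 11.3 FPKM in shNC and 9.71 to 10.5 FPKM in shARHGEF2 libraries, so that the groups overlapped. ACTA2, smooth muscle actin, had 4.3 to 5.25 FPKM in shNC and 5.25 to 6.03 FPKM in shARHGEF2 libraries (adjusted p = 0.459 in limma). Before rounding, ACTA2 was higher in every shARHGEF2 library than in every control, as were 11.3% of all genes tested. DES, the intermediate filament desmin, had 1.17 to 2.84 FPKM over the 6 libraries, and the smooth muscle myosin gene MYH11 reached at most 0.204 FPKM. None of the endothelial or smooth muscle genes tested had an adjusted p under 0.05 in limma. Of these 6, only TAGLN had an unadjusted p under 0.05 in limma, with a log2 difference of -0.35, where 13.7% of all genes did. TAGLN was lower in every shARHGEF2 library than in every control, as were 9.17% of all genes tested.

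The genes around the ligands and receptors were taken in 5 lists of 68 genes in all, of which 53 were tested. In limma, 0 of the 53 had an adjusted p under 0.05, and 6 had an unadjusted p under 0.05, all of them higher in shARHGEF2 cells. Because the fit missed small changes in simulated data, a lack of calls does not mean that these genes were unchanged. Over all genes tested, 0.277% had an adjusted and 13.7% an unadjusted p under 0.05 in limma, in either direction. Against these shares, the count of the lists in both directions together did not stand above the background. A share for higher genes alone was not taken at the unadjusted threshold, so the shared direction of the 6 has no background here. Of the 53, 40 had a positive and 13 a negative log2 difference, with a median of 0.08, beside 0.00 over all genes tested, of which 49.6% were positive. The number positive was 30 of 53 without shNC replicate 1, where 44.4% of all genes were positive, and 45 of 52 without shNC replicate 2, where 57.4% were. It was 42 of 53 after quantile normalization (48.3% of all genes) and 43 of 53 with libraries rescaled to a common sum (55.6% of all genes).

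Upstream of ECE1, 6 of the 9 convertases and carboxypeptidases that process precursors were tested. FURIN is the best known of the convertases that cut the precursor to big endothelin. It had 85.9 ± 13.6 FPKM in shNC and 95.9 ± 4.75 FPKM in shARHGEF2 cells (SD, n = 3 each, adjusted p = 0.599 in limma). CPE, a carboxypeptidase that trims peptide precursors, had 5.23 ± 0.336 and 6.67 ± 1.31 FPKM (SD, n = 3 each, adjusted p = 0.436 in limma). Both steps of peptide release thus had an abundant enzyme transcript in both groups, FURIN and ECE1.

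Of 8 other proteases that can cleave endothelins, CTSA and MMP2 were tested. CTSA, the lysosomal carboxypeptidase cathepsin A, which inactivates endothelin-1, had 36 ± 0.6 and 39 ± 1.05 FPKM (SD, n = 3 each, adjusted p = 0.588 in limma). MMP2, a secreted gelatinase, had 7.99 ± 0.417 and 9.29 ± 1.85 FPKM (SD, n = 3 each, adjusted p = 0.648 in limma). MME (neprilysin), a main endothelin-degrading enzyme of many tissues, did not exceed 0.0156 FPKM in any library.

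The transducers of the receptors were present although the receptors were scarce. All 9 G protein genes were tested, led by GNAS, the stimulatory subunit, at 62.3 ± 1.95 and 71.2 ± 17 FPKM (SD, n = 3 each, adjusted p = 0.689 in limma). GNAI2, an inhibitory subunit, had 33.9 ± 0.982 and 39.6 ± 1.57 FPKM (SD, n = 3 each, adjusted p = 0.3 in limma). GNA12, a subunit that couples receptors to RHOA through exchange factors, had 13.9 ± 0.419 and 16.5 ± 0.142 FPKM (SD, n = 3 each, adjusted p = 0.313 in limma). GNAI2 and GNA12 were higher in every shARHGEF2 library than in every control, as were 11.3% of all genes tested.

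Among 20 effectors, 15 were tested. RHOA, the GTPase that ARHGEF2 activates, had the highest level, with 205 to 222 FPKM over the 6 libraries (adjusted p = 0.866 in limma). ITPR3, a calcium channel of the endoplasmic reticulum opened after phospholipase C acts, had 49.2 ± 8.33 and 52.8 ± 0.306 FPKM (SD, n = 3 each, adjusted p = 0.752 in limma). PRKCD, a protein kinase C, had 14 ± 1.19 and 16.3 ± 0.694 FPKM (SD, n = 3 each, adjusted p = 0.411 in limma), and PLCB2, a phospholipase C, had 0.972 ± 0.137 and 1.13 ± 0.157 FPKM (adjusted p = 0.735 in limma). NOS3, the endothelial nitric oxide synthase downstream of EDNRB, did not exceed 0.0213 FPKM.

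Of 22 transcription factors and cofactors with a known or proposed part in EDN1 transcription, 21 were tested. JUNB and JUND, subunits of AP-1, were the most abundant. JUNB had 574 ± 104 FPKM in shNC and 719 ± 37.2 FPKM in shARHGEF2 cells (SD, n = 3 each, adjusted p = 0.294 in limma). JUND had 131 ± 14.4 and 160 ± 7.84 FPKM (SD, n = 3 each, adjusted p = 0.255 in limma). JUND, like CTSA and PRKCD above, was higher in every shARHGEF2 library than in every control, as were 11.3% of all genes tested. KLF2, a factor known to lower EDN1 in endothelium, had 1.37, 1.1 and 1.77 FPKM in shNC replicates 1 to 3 and 2.37, 2.76 and 2.77 FPKM in shARHGEF2 replicates 1 to 3. KLF2 was thus higher in every shARHGEF2 library than in every control, as were 11.3% of all genes tested. Its log2 difference of 0.60 (standard error 0.14) had the smallest adjusted p of the 5 lists, 0.126 in limma, which missed the threshold. HIF1A, the oxygen-regulated factor that binds the ACGTG core, was named after its values were seen because the EDN1 window holds this core. It had 16.1 to 24.5 FPKM in shNC and 13.9 to 24 FPKM in shARHGEF2 libraries.

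**Figure D4:**
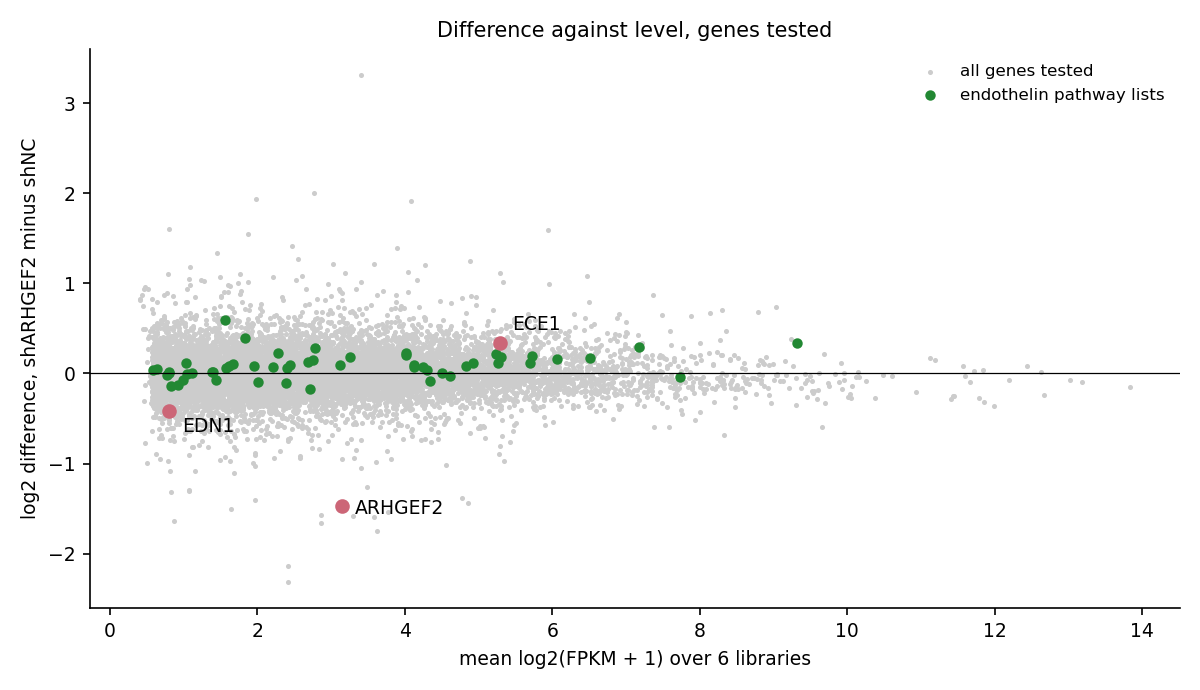
Log2 difference, shARHGEF2 minus shNC, against mean log2(FPKM + 1) for the 12291 genes tested (grey), with the 53 pathway genes in green and EDN1, ECE1 and ARHGEF2 in red. EDN1 lies at the low end of the levels with -0.42, ECE1 at a high level with 0.34, and ARHGEF2 at -1.47.

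**Figure D5:**
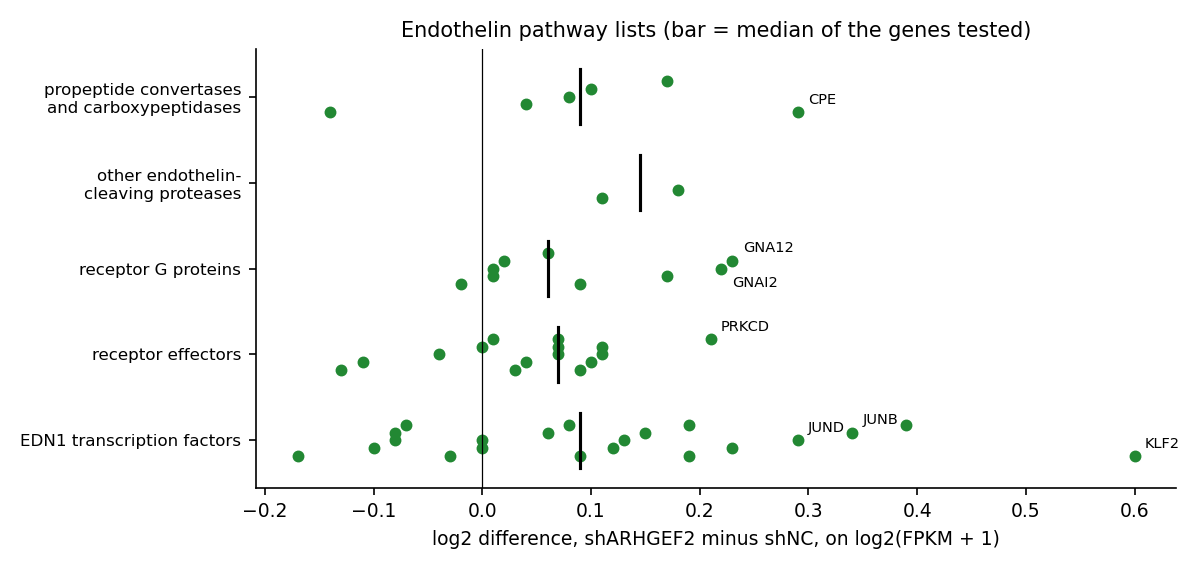
Log2 difference on log2(FPKM + 1), shARHGEF2 minus shNC, of the genes tested in each of the 5 lists, 1 point per gene with a bar at the median. The medians lie between 0.06 and 0.15, and KLF2 at 0.60 is farthest from 0; 0 of these genes passed the threshold.

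The genes most like EDN1, EDN2 and ECE1 over the 6 libraries were found by Pearson's r of log2(FPKM + 1), as a description. For EDN1 they were KCTD10 (r = 0.996), ZNF2 (0.995) and RHBDD1 (0.993), and 83 of the genes tested had an r over 0.95. KCTD10 had 3.21, 3.94 and 2.93 FPKM in shNC replicates 1 to 3 and 1.81, 1.89 and 1.81 FPKM in shARHGEF2 replicates 1 to 3. For EDN2 they were EIF3CL (0.997), KANK2 (0.996) and FANCL (0.993), with 102 genes over 0.95. EIF3CL is nearly identical to EIF3C, so its value depends on how shared reads were divided. For ECE1 they were TRAF3IP2 (0.996), NDUFA7 (0.990) and SNHG29 (0.990), with 51 genes over 0.95. TRAF3IP2 also had its lowest value in shNC replicate 1, at 1.92 FPKM against 3.45 to 4.49 FPKM in the other libraries. EDN1 and EDN2 were chosen for their lower level in these same libraries. A high r with them can repeat that group difference and carries no weight.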

How the data were processed

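Per the labels, poly(A) RNA from HepG2 cells was made into strand-marked libraries with molecular identifiers and sequenced as read pairs. The submitters' processing notes list cutadapt 1.9, HISAT2 2.0.4, UMI-tools, StringTie 1.3.4d, DESeq2, edgeR and the build hg19, without their roles. The authors deposited 1 table with FPKM values per gene and library. It also holds their fold changes, p-values and q-values, which were not used. How transcripts were combined and whether strand was used is not given in the sources used here. Counts were not used, so no count test was run.

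Positions are those of GENCODE 29 on GRCh38, matched by gene identifier (97.8% of 27605 genes). Promoters are from RefSeq (GRCh38.p14). Proteins were not used here.

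The genes whose 6 libraries averaged 0.5 FPKM or more were tested with limma 3.58.1 (R 4.3.3, statmod 1.5.0) on log2(FPKM + 1), with trended and robust variances, without a block. Benjamini-Hochberg adjustment ran over all 12291 genes, with calls made at an adjusted p under 0.05. A fold change on this scale understates the change of low genes. The fit was tested on simulated data, where it missed small changes. Other steps used Python 3.11.15 with pandas 2.3.3, numpy 2.4.6, Biopython 1.88 and matplotlib 3.10.9. Counting units were estimated from genes that have a single transcript in the table and 600 nt or more, by searching spacings of 15 to 150 FPKM × nt. Only genes whose values had at most 6 decimals entered. For EDN2, EDNRA and EDNRB, the step was thus applied outside the kind of gene that set it.

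The members and lists were chosen with earlier results of these data known. Besides the members, genes of a list were named that passed, or else those with the highest mean (2) or the smallest unadjusted p (2), with the 3 genes most like EDN1, EDN2 and ECE1 (EDNRA and EDNRB were too low for this). Outside this rule, HIF1A, MME, NOS3 and the markers and overlapping genes named were chosen after their values were seen. For RGS5, a smooth muscle marker, the higher of 2 entries was used. The alternatives were a pseudocount of 0.1 FPKM, other filters, rescaling to a common sum, quantile normalization, simpler variances, a replicate block and each library left out.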

Additional observations from a re-analysis of the deposited data

How the results depend on the processing

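Values are log2 differences, shARHGEF2 minus shNC. EDN1 (-0.42 as reported), EDN2 (-0.41) and EDNRA (-0.10) were lower under every alternative run that gave a value. A pseudocount of 0.1 FPKM moved EDN1 to -0.87, EDN2 to -1.46, EDNRA to -0.43 and EDNRB to -0.08. Rescaling each library to a common sum, which raises low values over the pseudocount, gave -0.66, -0.85 and -0.23 for EDN1, EDN2 and EDNRA. With 1 library left out, they lay between -0.47 and -0.36 for EDN1, -0.49 and -0.28 for EDN2 and -0.13 and -0.07 for EDNRA. EDNRB, at -0.01, turned to 0.00 without shNC replicate 3 and lay between -0.02 and 0.00 over the libraries left out. ECE1 kept its sign and stayed uncalled under all 13 alternatives (0.05 to 0.54), and the pathway lists held 0 calls in each. With at least 1 FPKM asked for in 3 or more libraries, EDN1, EDN2, EDNRA and EDNRB gave no value. ECE2 alternatives were not run.

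The number of genes called, 34 as reported, was 1 with no filter beyond a value above 0, 54 with at least 1 FPKM in 3 or more libraries, 19 after quantile normalization and 7 without trended and robust variances. With 1 library left out it was 6 to 102, the highest without shNC replicate 3. With the replicate block it was 0 in limma, with 1976 genes at an unadjusted p under 0.05. Residuals of libraries with the same number correlated at 0.184, 0.159 and -0.105. Libraries with unlike numbers were not compared in this way, so whether the numbers pair the libraries was not settled. The cause of these shifts was not tested. Depth limits EDNRB, at roughly 0 to 6.5 counting units per library, and EDN2 in shARHGEF2 cells, at roughly 2.3 to 12.2. EDNRA had roughly 19.3 to 55.1 counting units per library.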
